A study of Homo sapiens with 3 samples.

Results

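Proteoglycans are core proteins that carry long sulfated sugar chains, the glycosaminoglycans. The 10 genes described here encode the large matrix proteoglycan versican (VCAN), the small leucine-rich proteoglycans lumican (LUM), decorin (DCN) and biglycan (BGN), the glypicans GPC1, GPC3 and GPC4, and the syndecans SDC1, SDC2 and SDC4. Every probe set annotated to exactly 1 of these symbols was taken, which gave 29 of the 54675 probe sets on the array and 10 of the 19775 genes represented on it. The genes were selected on these MAS5 signals, with the differences of VCAN and LUM between the lines already known, so the differences of the members are given as a description with no test.

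The series compared MHCC97Low, a human hepatocellular carcinoma line that the labels call metastatic, with a cisplatin-resistant subline (MHCC97L/CisR) and a doxorubicin-resistant subline (MHCC97L/DoxR) derived from it. Cisplatin crosslinks DNA, and the anthracycline doxorubicin traps topoisomerase II on it. All 3 lines were grown in DMEM with 10% FBS and were not treated before RNA extraction, and the dose and length of drug selection are not given in the sources used here. Total RNA of each line was hybridised to 1 Affymetrix U133 Plus 2.0 array, so no group has a replicate and no spread between cultures is known. How precise a value is depends on this number of arrays.

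Versican is secreted into the matrix, where it binds hyaluronan and carries chondroitin sulfate chains. Lumican, decorin and biglycan bind collagen fibrils, and in liver tissue such matrix proteoglycans are known mainly as products of stellate cells and fibroblasts. Glypicans are tied to the cell surface by a lipid anchor and syndecans cross the membrane. Both carry heparan sulfate chains, which hold growth factors near their receptors, and syndecans are abundant heparan sulfate proteoglycans of hepatocytes.

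Values are MAS5 signals in arbitrary units, 1 per probe set and array. A floor was set at 76.9 signal units, the pooled median of the 3 arrays, and any smaller signal was replaced by it ahead of the log2 step, since the order of low MAS5 signals is unreliable. A difference was called at 2-fold, and a fold is written as "at least" where the lower of its 2 signals did not exceed the floor. Signals of different probe sets are not compared with each other, since each probe set has its own brightness.

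Some proteoglycans were measured in all 3 lines and others stayed low in all of them. Of the 29 probe sets, 7 lay above the floor on all 3 arrays, 7 on 1 or 2 arrays and 15 on none. VCAN, LUM, GPC1, SDC1 and SDC4 each had at least 1 probe set above the floor on all 3 arrays. DCN and BGN passed it on some arrays only, and GPC3, GPC4 and SDC2 on none. On the parental array 31.0% of the member probe sets were above the floor, against 50.3% of all probe sets.

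**Figure D1:**
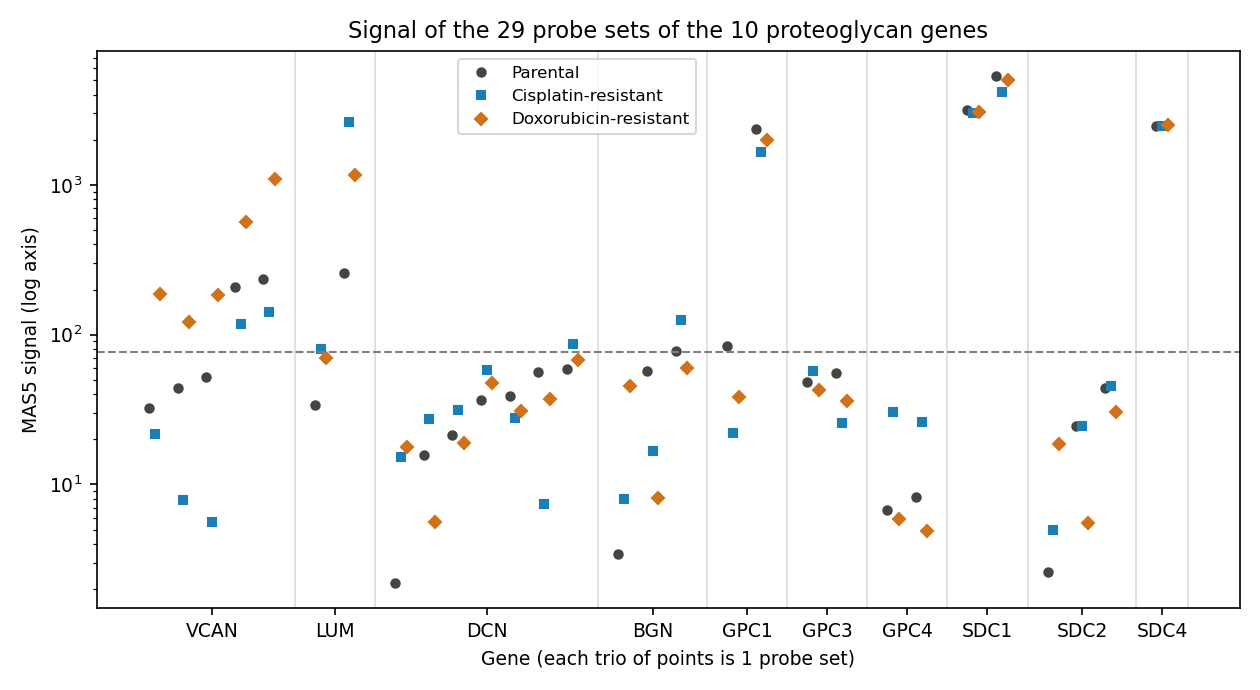
MAS5 signal (log axis) of the 29 probe sets of the 10 genes, with 1 point for each of the 3 arrays and the floor of 76.9 as a dashed line. SDC1, SDC4 and 1 GPC1 probe set lie far above the floor with their points close together, VCAN and LUM spread widely, and GPC3, GPC4 and SDC2 stay under the floor.

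The upstream sequences of VCAN, whose signal differed most between the sublines, and of SDC4, whose signal was nearly equal in all 3 lines, are shown so that these contrasting members can be set beside each other. Each is the 250 bases before the gene's start from the RefSeq promoter table (GRCh38.p14), read 5′ to 3′ on the gene's strand. VCAN lies on the plus strand (chr5:83471494-83471743) and SDC4 on the minus strand (chr20:45348425-45348674). Capitals mark GC boxes (GGGCGG or its reverse complement).
VCAN: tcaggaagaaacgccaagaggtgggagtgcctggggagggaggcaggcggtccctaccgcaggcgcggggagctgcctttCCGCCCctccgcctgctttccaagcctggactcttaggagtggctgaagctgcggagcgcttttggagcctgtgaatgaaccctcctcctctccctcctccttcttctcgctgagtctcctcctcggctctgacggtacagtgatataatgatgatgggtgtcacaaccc
SDC4: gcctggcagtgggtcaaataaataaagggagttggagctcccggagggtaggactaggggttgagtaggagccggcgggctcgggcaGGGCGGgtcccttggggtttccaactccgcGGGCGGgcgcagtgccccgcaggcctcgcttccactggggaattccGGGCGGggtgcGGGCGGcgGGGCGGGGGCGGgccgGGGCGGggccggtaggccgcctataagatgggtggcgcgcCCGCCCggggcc

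The VCAN window had a GC content of 60.8% with 12 CpG dinucleotides and 1 GC box, which began 170 bases before the start. The SDC4 window had a GC content of 73.6% with 26 CpG dinucleotides and 8 GC boxes, 2 of which adjoin each other. Over all 35116 windows of the table the median GC content was 58.0% and the median number of CpG dinucleotides 11. Windows of 6 members were used here, 7 in all because SDC1 has 2 starts, and all 7 held a GC box, as did 42.6% of all windows. A window for SDC2 was in the table but was left out, so the 7 do not cover every member with a window. For LUM, DCN and GPC3 no window was matched. Both strands were also searched for 5 other motifs. The TATA box (letters TATAAA) is in 10.7% of all windows and the CCAAT box (its letters as named) in 32.0%. The AP-1 motif with the letters TGANTCA is in 6.57% and the TCF/LEF motif with the letters CTTTGAT in 2.26%. The E box, spelled CANNTG, is in 61.8%. Among the member windows only the E box was found, in 1 SDC1 window, and a match or its absence says only which letters are in the window.

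VCAN was high in the doxorubicin-resistant subline and was not called in the cisplatin-resistant one. Its probe set with the highest mean signal, 221731_x_at, gave 236 in the parental line, 142 in the cisplatin-resistant subline and 1098 in the doxorubicin-resistant one. Probe set 204620_s_at gave 209, 118 and 568 in the same order. In both, the doxorubicin-resistant array stood well above the other two, and the cisplatin-resistant array was the lowest. In bulk RNA, more cells with the transcript and more transcript per cell cannot be told apart.

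The doxorubicin-resistant signal of VCAN was 4.66-fold above parental by 221731_x_at and 2.72-fold by 204620_s_at. The suffix _x_at marks probe sets whose probes can also match other sequences, so the size of the difference depends on which of these probe sets is read. The other 3 VCAN probe sets were above the floor in the doxorubicin-resistant array only. Their signals there were 187 for 204619_s_at, 183 for 211571_s_at and 122 for 215646_s_at, which made them at least 2.43-fold, at least 2.38-fold and at least 1.58-fold higher than parental. All 5 VCAN probe sets thus lay higher in the doxorubicin-resistant line, and 4 of them passed 2-fold.

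Against parental, VCAN in the cisplatin-resistant array was 1.66-fold lower by 221731_x_at and 1.76-fold lower by 204620_s_at, both under the 2-fold call. By both probe sets the sublines lay on opposite sides of the parental value. Set against each other directly, the doxorubicin-resistant line had 7.73-fold more VCAN signal than the cisplatin-resistant line by 221731_x_at and 4.80-fold more by 204620_s_at. Of 29159 probe sets compared between the sublines, 17 were higher in the doxorubicin-resistant array by as much as 221731_x_at, itself included.

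**Figure D2:**
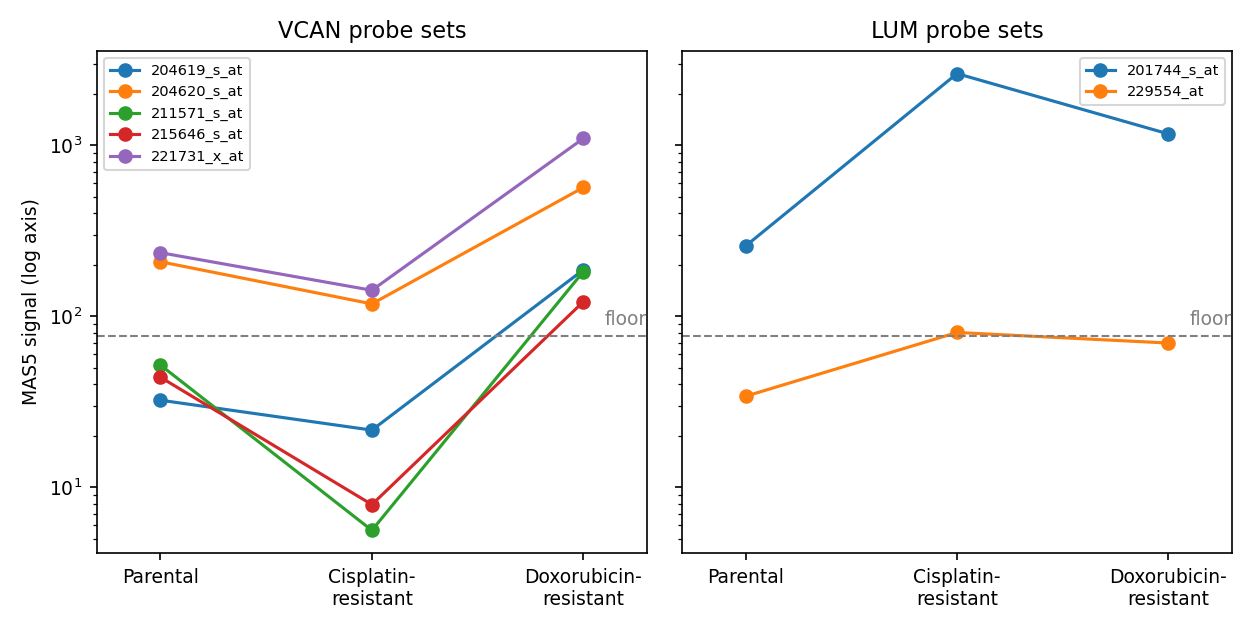
MAS5 signal (log axis) of the 5 VCAN probe sets and the 2 LUM probe sets on the parental array and those of both sublines, with lines joining the values of 1 probe set and the floor of 76.9 dashed. VCAN peaks in the doxorubicin-resistant array at up to 1098, and LUM peaks in the cisplatin-resistant array at 2632.

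LUM, a collagen-binding keratan sulfate proteoglycan, was higher in both sublines. Probe set 201744_s_at gave 258 in the parental line, 2632 in the cisplatin-resistant subline and 1167 in the doxorubicin-resistant one. Both sublines lay above parental, and the cisplatin-resistant line had the highest signal. The folds over parental were 10.2 and 4.53, and the doxorubicin-resistant signal was 2.26-fold below the cisplatin-resistant one. Of 29467 probe sets compared, 3 were higher in the cisplatin-resistant array by as much as LUM, itself included, and 40 of 29078 were so in the doxorubicin-resistant array.

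The other LUM probe set, 229554_at, carried little of this. It gave 34.1, 80.5 and 69.8 in the parental line, the cisplatin-resistant and the doxorubicin-resistant subline, so only the cisplatin-resistant value was above the floor, at least 1.05-fold higher than parental. With the median over both probe sets in place of the brighter one, the cisplatin-resistant minus parental log2 difference of LUM was 1.71 instead of 3.35, and that between the sublines was -0.62 instead of -1.17, under 2-fold. The LUM differences therefore rest on 1 probe set.

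The other small leucine-rich proteoglycans were low. DCN, which binds collagen and TGF-beta, had 7 probe sets with signals of 2.21 to 86.0. Its 1 value above the floor was that of 201893_x_at in the cisplatin-resistant array, where the parental signal was 59.2 and the doxorubicin-resistant one 67.4. DCN is the next gene to LUM on chromosome 12, and its highest signal, 86.0, was on the array on which LUM gave 2632. KERA and EPYC, the leucine-rich proteoglycan genes on the other side of LUM, were under the floor on all 3 arrays, with a highest signal of 21.6 for KERA and 11.6 for EPYC. Farther along, BTG1, an antiproliferative gene, had log2 differences of 0.01 (cisplatin-resistant minus parental) and 0.42 (doxorubicin-resistant minus parental). Of the 6 nearest named genes around LUM, 2 could be compared in the former and 1 in the latter, and none was called.

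BGN, a close relative of decorin, gave 77.7, 125 and 60.1 by 201261_x_at in the parental line, the cisplatin-resistant and the doxorubicin-resistant subline. It was 1.61-fold higher than parental in the cisplatin-resistant array, a difference that starts at the floor. The other BGN probe sets, 201262_s_at and 213905_x_at, stayed under the floor on every array. Of the 6 neighbours of BGN on chromosome X, 5 could be compared, and all 5 were below parental in both sublines, with none past 2-fold and median log2 differences of -0.75 for the cisplatin-resistant line and -0.48 for the doxorubicin-resistant line. The BGN probe set did not share the direction of its neighbours in the cisplatin-resistant array.

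Around VCAN on chromosome 5 no neighbour was called against parental in either subline. HAPLN1, which encodes a link protein that holds versican on hyaluronan, is the next gene and was under the floor on all 3 arrays, at 8.98 to 16.4. EDIL3, a secreted integrin-binding protein, gave 108 in the parental line, 203 in the cisplatin-resistant subline and 24.4 in the doxorubicin-resistant one, the reverse order of VCAN. XRCC4, a DNA end-joining factor and the next gene on the other side, gave 418, 260 and 556, the same order as VCAN. Between the sublines the doxorubicin-resistant array was 2.14-fold higher for XRCC4 and lower by at least 2.64-fold for EDIL3. The median of the 5 compared neighbours of VCAN was 0.07 for the cisplatin-resistant line and -0.02 for the doxorubicin-resistant line, as log2 differences.

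The glypicans showed 1 measured gene. GPC1 gave 2345, 1664 and 1990 by 202756_s_at in the parental line, the cisplatin-resistant and the doxorubicin-resistant subline. Both sublines were below parental, by 1.41-fold and 1.18-fold, neither past 2-fold. Its other probe set, 202755_s_at, was at 83.6 in the parental array and under the floor in both sublines.

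GPC3, an oncofetal glypican used as a tissue marker of hepatocellular carcinoma, stayed under the floor in these hepatoma lines. Its 2 probe sets gave 25.6 to 57.5 over the 3 arrays. GPC4, its neighbour on chromosome X, gave 4.91 to 30.6. Neither gene can be given a fold in any comparison, and a signal under the floor is not evidence that the transcript is absent.

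The syndecans split the same way. SDC1, the main syndecan of hepatocytes and other epithelia, gave 5318, 4164 and 4985 by 201287_s_at in the parental line, the cisplatin-resistant and the doxorubicin-resistant subline. Its second probe set, 201286_at, gave 3165, 3017 and 3055. The largest SDC1 difference was 1.28-fold, in the cisplatin-resistant array. SDC4, a syndecan of focal adhesions, gave 2479, 2484 and 2503 by its single probe set, a log2 difference of 0.00 and 0.01 from parental. SDC2 had 3 probe sets, all under the floor, at 2.60 to 45.2.

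Counted over probe sets, 11 of the 29 could be compared between the cisplatin-resistant and parental arrays, and 1 of them, from LUM, was at least 2-fold higher and none lower. Over all 29467 compared probe sets 2.39% were higher and 2.33% lower, together 4.72%. In the doxorubicin-resistant array 12 could be compared and 5 were at least 2-fold higher, 4 from VCAN and 1 from LUM, with none lower. Over all 29078 probe sets 2.54% were higher and 2.39% lower, together 4.93%. Between the sublines 4 of 13 were higher in the doxorubicin-resistant array, all VCAN, and 1 was lower, LUM, against 2.61% and 2.96% of all, together 5.57%. Because the genes were chosen with these differences known, and a probe set of 1 gene is no replicate of another, nothing is read from these shares. The median log2 difference of the compared member probe sets was -0.07, 0.34 and 0.26 in the 3 comparisons, against 0.01, -0.02 and -0.03 for all probe sets.

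Near the 2-fold call, the VCAN probe set 211571_s_at lay inside it in the doxorubicin-resistant array at 2.38-fold and 215646_s_at outside it at 1.58-fold, both as lower bounds. In the cisplatin-resistant array the nearest outside among the lower ones was VCAN 204620_s_at at 1.76-fold, and among the higher ones BGN 201261_x_at at 1.61-fold.

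**Figure D3:**
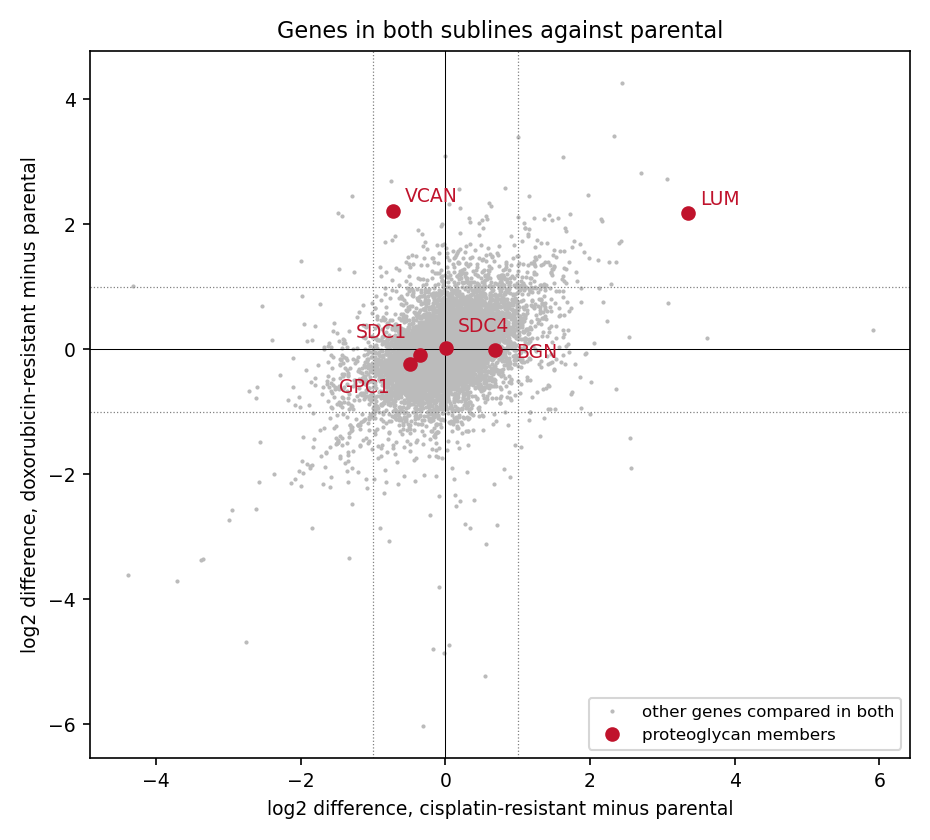
Log2 difference from parental in the cisplatin-resistant (horizontal) and doxorubicin-resistant (vertical) array, 1 grey point per gene compared in both and 6 proteoglycan genes in red, with dotted lines at 2-fold. LUM lies at 3.35 and 2.18 and VCAN at -0.73 and 2.22, while SDC1, SDC4, GPC1 and BGN lie within 2-fold. Both axes share the parental array, so a common tilt of the cloud is built in.

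Some genes had a pattern over the 3 arrays close to that of VCAN or LUM. Likeness was the distance between the pairs of log2 differences from parental, taken after the floor, over 12975 genes. For VCAN the nearest were the carnitine octanoyltransferase gene CROT (distance 0.40), the EGF receptor ligand epiregulin EREG (0.46), TMEM243 (0.47) and TM4SF4 (0.47). EREG gave 521, 312 and 1761 in the parental line, the cisplatin-resistant and the doxorubicin-resistant subline, the same order as VCAN. CROT and TMEM243 both lie on chromosome 7 and VCAN on chromosome 5.

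For LUM the nearest genes were farther off. They were TMEM47 (0.62), the osteoprotegerin gene TNFRSF11B (0.92), TMEM176B (1.02) and the O-glycan branching enzyme GCNT1 (1.06). TMEM47 gave 49.7, 642 and 511 in the parental line, the cisplatin-resistant and the doxorubicin-resistant subline and TMEM176B gave 621, 3347 and 2065. GCNT1 gave 12.7, 408 and 251 in the same order. The parental signals of TMEM47 and GCNT1 were under the floor, so their differences are lower bounds and their distances from LUM depend on the floor. With values on 3 arrays only, many genes can share such an order.

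Markers of fibroblasts and stellate cells, the cells best known for matrix proteoglycans, were mostly under the floor. Of 12 such markers, LUM and DCN left out, 2 were above the floor in the parental line, 4 with cisplatin resistance and 2 with doxorubicin resistance, and 8 were under it on all 3 arrays. The 4 compared in the cisplatin-resistant array had a median log2 difference of 0.18, with 1 at least 2-fold lower and none at least 2-fold higher. COL1A2, COL3A1, PDGFRA, PDGFRB, FAP and POSTN were among those under the floor everywhere. COL6A3, a collagen VI chain, gave 1499, 597 and 147 and was at least 2-fold lower in both sublines. The other 3 had their highest signal in the cisplatin-resistant line, as LUM had, but none was 2-fold above parental. The collagen I chain COL1A1 gave 309, 511 and 242 (log2 difference 0.73 from parental in that line). The smooth muscle actin gene ACTA2 gave 50.5, 91.7 and 64.6, and THY1, a surface protein of fibroblasts, gave 36.3, 82.5 and 19.8. ACTA2 and THY1 passed the floor only in the cisplatin-resistant array, at least 1.19-fold and at least 1.07-fold higher than parental. The summed signal of the 12 was 2119, 1486 and 569, with COL6A3 at 1499 in the parental sum. This sum adds probe sets of unlike brightness, also those under the floor, so no share is read from it. The part of other cells in the LUM and VCAN values was not tested beyond these signals.

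The labelled origin was checked against hepatocyte and epithelial markers. The epithelial keratins KRT8 and KRT18 gave 23132 to 26856 and 29626 to 34849 over the 3 arrays. Of 13 hepatocyte markers, these 2 keratins included, 11 were above the floor in the parental line, 10 with cisplatin resistance and 8 with doxorubicin resistance. Of 12 compared in the cisplatin-resistant array 9 were at least 2-fold lower than parental and none was at least 2-fold higher. Over all genes compared there, 2.58% were lower and 2.83% higher. Of 11 compared in the doxorubicin-resistant array 4 were at least 2-fold lower, against 2.74% of all genes. In that array 1, albumin, was 2.02-fold higher, against 2.98% of all genes at least 2-fold higher. Its log2 difference was 0.95 by the median over its probe sets. In the cisplatin-resistant array albumin was at least 20.1-fold lower, but its other 2 compared probe sets had log2 differences of only -2.34 and -1.40. Transferrin (TF) was 21.0-fold lower with cisplatin resistance and 12.2-fold lower with doxorubicin resistance. The log2 differences of its other 2 compared probe sets were -3.78 and -1.36 with cisplatin resistance and -3.42 and -1.36 with doxorubicin resistance. The fibrinogen chain FGB was 6.78-fold and at least 25.7-fold lower in the same order, and FGG at least 13.1-fold lower in each. Of 6 endothelial markers 2 were above the floor on each array and 4 on none. Those above it were PECAM1, at 802 to 1052 over the 3 arrays, and KDR, at 190 to 285. Of 5 leukocyte markers 1 was above the floor in the parental and 2 in each resistant array. ITGAM passed it on all 3 arrays, at 161 to 270. CD3E passed it at 86.6 with cisplatin resistance and 78.7 with doxorubicin resistance, and was at 49.7 in the parental line. The pan-leukocyte gene PTPRC was at most 8.50. The 3' to 5' signal ratio of ACTB, a sign of RNA integrity, was 1.49, 1.51 and 1.53, and the median signal of all probe sets 78.5, 79.2 and 73.3.

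The genes that build, modify and break down proteoglycans were mostly within 2-fold of parental, as were most of all genes compared. They were examined in 7 lists, with 1 probe set per gene, the one with the highest mean log2 value. Over all genes 2.83% of 12710 were at least 2-fold higher and 2.58% lower in the cisplatin-resistant array, together 5.41%, and 2.98% of 12605 were higher and 2.74% lower in the doxorubicin-resistant array, together 5.72%. The median log2 difference of all genes was 0.02 and 0.00.

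Among 31 other proteoglycan core proteins, 16 (cisplatin resistance) and 15 (doxorubicin resistance) could be compared, and in each 1 was at least 2-fold higher and 1 lower. The medians were 0.04 and -0.17. Serglycin (SRGN), an intracellular granule proteoglycan, gave 3112, 2891 and 1238 and was 2.51-fold lower in the doxorubicin-resistant array. Brevican (BCAN), a hyaluronan-binding relative of versican, gave 410, 574 and 902 and was 2.20-fold higher there, although its other probe sets went both ways, with log2 differences from -0.78 to 1.08. Syndecan 3 (SDC3) gave 167, 26.2 and 122 and was at least 2.17-fold lower with cisplatin resistance. SPOCK3, a testican, gave 42.5, 159 and 42.9 and was at least 2.06-fold higher there, but of its 3 other probe sets the 1 that could be compared had a log2 difference of only 0.05.

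Assembly of the sugar chains starts with a linker and sulfate and sugar donors, and none of these enzymes was called. Of 16 on the array, 15 (cisplatin resistance) and 16 (doxorubicin resistance) were compared, with median log2 differences of -0.10 and 0.06. Of 23 heparan sulfate chain enzymes, 13 were compared in each. HS3ST3B1, a 3-O-sulfotransferase, was 3.33-fold higher in the cisplatin-resistant array, with signals of 133, 444 and 81.0, but of its 2 other probe sets the 1 that could be compared had a log2 difference of -0.14. HS3ST1, an enzyme of the same class, was 2.70-fold lower in the doxorubicin-resistant array, with 363, 313 and 134. These were the only calls against parental, and the medians of the list were -0.15 and -0.07.

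Versican carries chondroitin sulfate, and its 16 chain enzymes, 13 of them compared in each subline, had 2 calls with cisplatin resistance and none with doxorubicin resistance. CHST7, a chondroitin sulfotransferase, gave 269, 71.4 and 181 and was at least 3.49-fold lower with cisplatin resistance. CHPF, a chondroitin polymerising factor, gave 78.7, 162 and 135 and was 2.06-fold higher there, from a value close to the floor. The medians were -0.08 and -0.01. Lumican can carry keratan sulfate, and of 9 keratan sulfate enzymes 5 were compared in each subline with none called and medians of 0.09 and -0.16.

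**Figure D4:**
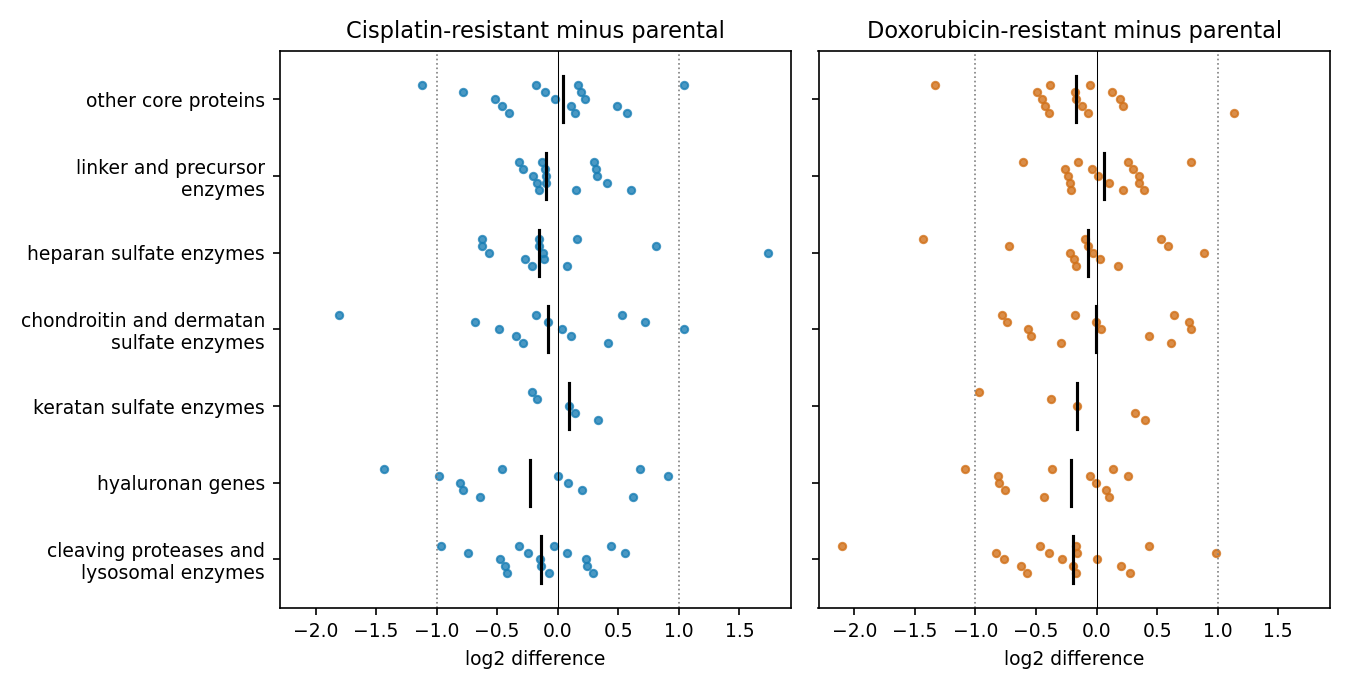
Log2 difference from parental of the genes in 7 lists, 1 point per compared gene, in the cisplatin-resistant (left) and doxorubicin-resistant (right) array, with the list median as a black bar and dotted lines at 2-fold. All medians lie between -0.23 and 0.09, and the points past 2-fold are the 11 calls against parental named in the text.

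Hyaluronan, the sugar polymer that versican binds, is covered by 21 genes on the array, of which 12 were compared in each subline. With 1 probe set per gene, none was at least 2-fold higher than parental, and 1 was at least 2-fold lower in each. AMBP, which supplies the light chain bikunin of the hyaluronan-bound inter-alpha-trypsin inhibitor and is made by hepatocytes, gave 1217, 451 and 720 and was 2.70-fold lower in the cisplatin-resistant array, where its other probe set had a log2 difference of -0.68. CEMIP, a hyaluronan-degrading protein, gave 1508, 969 and 712 and was 2.12-fold lower in the doxorubicin-resistant array. Under 2-fold, values in the cisplatin-resistant array went both ways, from ITIH2, an inter-alpha-trypsin inhibitor heavy chain, at 1.97-fold lower to the hyaluronan synthase HAS2 at 1.88-fold higher. By the median over its probe sets HAS2 was past 2-fold higher there, at a log2 difference of 1.05. The medians of the list were -0.23 and -0.21.

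Of 20 proteases and other enzymes that act in the breakdown of proteoglycans or their chains, 17 were compared in each subline. None was called in the cisplatin-resistant array. ADAMTS15, a secreted protease that can cleave versican, gave 331, 247 and 18.8 and was at least 4.30-fold lower with doxorubicin resistance. It was the only call against parental, and the medians were -0.14 and -0.19.

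Set against each other directly, the sublines differed in a few more genes of these lists. Over all 12604 genes compared between them, 3.05% were at least 2-fold higher and 3.3% lower in the doxorubicin-resistant array, together 6.36%. Of 17 other core proteins none was higher and 3 lower, SRGN, SPOCK3 and the TGF-beta co-receptor betaglycan (TGFBR3). Of 13 heparan sulfate enzymes 1 was higher, the polymerase subunit EXT2 at 2.15-fold, and 2 were lower, HS3ST1 at 2.33-fold and HS3ST3B1 at 5.48-fold. CHST7 was the 1 chondroitin sulfate enzyme called, at least 2.35-fold higher. The 1 keratan sulfate enzyme called, the sulfotransferase CHST5, was 2.16-fold lower, but its other probe set had a log2 difference of 0.33.

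HAS2, which makes hyaluronan, was the 1 hyaluronan gene called between the sublines. It gave 135 in the parental line, 254 in the cisplatin-resistant subline and 33.2 in the doxorubicin-resistant one, at least 3.30-fold lower in the latter than in the cisplatin-resistant subline. Its other probe set had a log2 difference of -1.82 in the same comparison. Among proteases and lysosomal enzymes ADAMTS15 was at least 3.21-fold lower and HGSNAT, an acetyltransferase of heparan sulfate breakdown, 2.02-fold lower, the latter with -0.32 and 0.46 by its other compared probe sets. No linker or precursor enzyme was called. TGFBR3, EXT2, CHST5, HAS2 and HGSNAT are named after their values were seen.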

How the data were processed

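RNA of 3 lines was measured on 1 array each. The authors deposited linear intensity (signal) per probe set, made with MAS5 per the submitters' processing notes; no version is given there. After trimming 2% of values at either end, every array had a mean of 500.1, as a global scaling would leave it, which assumes similar total signal. None of the 3 value columns was left out.

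Gene symbols came from the array's GEO annotation and were updated by Entrez identifier to RefSeq (GRCh38.p14), which also gave the gene order. Of 41097 probe sets with 1 symbol, 41043 matched. Differences are log2 values between 2 arrays after the floor (76.9), computed with Python 3.11.15, numpy 2.4.6 and pandas 2.3.3. A probe set or gene was compared when at least 1 value was above the floor. With 1 array per line there was no test. The steps were tested on simulated arrays, with changes put only into probe sets well above the floor, so signals near it were not covered. Members and lists were chosen with earlier results of these data known.

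Named genes were all members, from each list up to 4 called genes farthest from parental, the 4 genes nearest VCAN and LUM, and 3 neighbours on each side of a member. Of the neighbours, those that bear on a member are named. Other markers, ITIH2 and the list genes called only between the sublines were named after their values were seen. Alternatives changed the floor, the scaling, the fold, the probe set of a gene and the use of _x_at probe sets.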

Additional observations from a re-analysis of the deposited data

How the results depend on the processing

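With quantile normalization or median centring, the count of member probe sets past 2-fold was the main one in each comparison (1, 5 and 5 in the cisplatin-resistant against parental, the doxorubicin-resistant against parental and the direct comparison). Lower floors added dim probe sets. With the floor at the 25th percentile of all values (19.4) the counts were 8, 10 and 8, and with no floor 12, 14 and 15. In the cisplatin-resistant array the main count was 1 higher and 0 lower, against 2 higher and 6 lower with the lower floor and 6 and 6 with none. With the floor at the 75th percentile (440) they were 1, 2 and 2. At 1.5-fold the count against parental in the cisplatin-resistant array was 4. All probe sets past 2-fold went likewise from 1391, 1433 and 1624 to 5497, 5583 and 5826, to 12964, 13307 and 13593, and to 338, 406 and 475, and all genes from 688, 721 and 801 to 2038, 2092 and 2189, to 3952, 4078 and 4155, and to 229, 259 and 321. Alternative values for the member genes, 128 in all, were taken only where the main floor gave a difference. None of the 128 came from GPC3, GPC4 or SDC2, nor from DCN in the doxorubicin-resistant array against parental. Of these 128 values none changed sign past 2-fold, and 125 stayed on their side of it. The exceptions were LUM between the sublines, at -0.62 by the median over its probe sets, and BGN between the sublines, at -1.06 with the lower floor or none. The VCAN difference from parental in the doxorubicin-resistant array ranged from 1.28 to 2.22 on the log2 scale. By the median over probe sets HS3ST3B1 and SPOCK3 were under 2-fold against parental in the cisplatin-resistant array, at 0.80 and 0.54. Albumin was under 2-fold in the doxorubicin-resistant array, at 0.95, as were EXT2, CHST5 and HGSNAT between the sublines, at 0.95, -0.39 and -0.32. HGSNAT was at -0.99 with median centring. HAS2 passed 2-fold against parental in the cisplatin-resistant array by the median over its probe sets, at 1.05. With the floor at the 75th percentile HS3ST3B1 was at 0.01. Under quantile normalization the medians of the hyaluronan genes were -0.49 and -0.38 in place of -0.23 and -0.21, and 1 protease or lysosomal enzyme, not 0, was past 2-fold in the cisplatin-resistant array. With median centring 2 hyaluronan genes, not 1, were past 2-fold there, and with the floor at the 25th percentile 4 were. In the doxorubicin-resistant array 9 hyaluronan genes, not 1, were past 2-fold with that floor or none, all lower, and the median was -0.81 and -0.76 in place of -0.21. The counts of calls in the lists moved by over 1.5 times in 47 of 105 alternative values, most of them with another floor, and list medians by 0.1 or more in 20 of 105. No paired analysis was possible because each line has 1 array. Signals near the floor limit what can be said of DCN, BGN, GPC3, GPC4 and SDC2.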
